A study of Homo sapiens with 8 samples.

Results

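Ezrin, radixin and moesin (the ERM proteins), the related tumour suppressor merlin and 2 membrane proteins that ERM proteins hold were followed through FOXA1 knockdown in SKBR3 cells. The genes are EZR, RDX, MSN, NF2, CD44 and PODXL. They were found as the rows of the count table whose symbol equals one of these 6 names, which gave 6 of 30434 genes, and all 6 passed the filter on low counts that left 16430 genes. The set was chosen by a family relation together with earlier results of this same comparison, so the difference between knockdown and control is given for its members as a description, with no test.

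SKBR3 is an established human breast cancer line in which ERBB2 (HER2) is amplified. RNA was sequenced from 4 libraries of control cells, whose genotype label is WT, and from 4 libraries of a stable line with FOXA1 knockdown made with lentiviruses that carried 3 individual shRNAs against the FOXA1 mRNA. Both groups grew in the same DMEM medium with serum. The labels give neither the vector of the controls, nor the shRNA in each library, nor whether replicates are separate cultures, so the p-values below measure the spread between these libraries, which may be technical.

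ERM proteins tie the cortical actin network to the plasma membrane. Their amino-terminal FERM domain binds the tails of membrane proteins and the lipid PIP2, their carboxy-terminal end binds actin filaments, and the 2 ends mask each other until lipid binding and phosphorylation of a carboxy-terminal threonine open the molecule. In epithelia such as the breast, ezrin is the ERM protein of apical microvilli, whereas moesin is best known from white blood cells and endothelium. Merlin, the product of NF2, shares the FERM domain but restrains growth, in part through the Hippo pathway.

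Totals ran from 19087878 to 23786684 counts per library, with levels given as CPM, the count scaled to sequencing depth after TMM scaling between libraries. A floor of 3 counts in a library was worth 0.123 to 0.153 CPM. FOXA1 itself retained 2.06% of its control level in the knockdown libraries and ERBB2 18.3%. Of the 16430 genes, 77.1% passed an adjusted p under 0.05 in edgeR's quasi-likelihood test, 39.4% higher and 37.7% lower in knockdown, so a call is the usual outcome for a gene of this table. The 5 luminal epithelial markers (KRT7, KRT8, KRT18, KRT19 and EPCAM) were present in both groups, with summed levels of 11275 to 12603 CPM in control and 10112 to 11043 CPM in knockdown. Within that sum KRT7 fell from 2199 CPM ± 87.9 to 636 CPM ± 10.2 and KRT19 from 2642 CPM ± 133 to 722 CPM ± 36.2, while KRT8, KRT18 and EPCAM rose (SD, n = 4; edgeR adjusted p under 0.05 for all 5). Of 6 fibroblast markers, 5 were measured and summed to between 5.26 and 6.97 CPM in control and between 10.8 and 11.9 CPM in knockdown. COL3A1 made up most of the difference, and COL1A2 and DCN stayed at or under 3 counts in every library. PDGFRB also rose, from 0.410 CPM ± 0.110 to 2.83 CPM ± 0.475 (SD, n = 4; edgeR adjusted p of 2.99e-11). COL1A1 went the other way, from 5.38 CPM ± 0.754 to 4.32 CPM ± 0.220 (SD, n = 4; edgeR adjusted p of 0.017). Endothelial markers summed to between 20.7 and 22.1 CPM in control and 19.7 and 22.4 CPM in knockdown, with PECAM1 at 6 counts or fewer. Within that sum VWF fell from 5.21 CPM ± 0.583 to 0.844 CPM ± 0.218 and CDH5 rose from 16.1 CPM ± 0.294 to 20.05 CPM ± 1.36 (SD, n = 4; edgeR adjusted p of 3.31e-13 and 6.28e-05). Leukocyte markers summed to at most 0.366 CPM in control and 0.661 CPM in knockdown, with PTPRC at 3 counts or fewer. Their part in the values below was not tested, and in bulk RNA more cells of a kind cannot be told apart from more RNA per cell.

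Among the 3 ERM genes, moesin differed most between the groups. MSN (ENSG00000147065.17, X chromosome, 65588377 to 65741931, plus strand, GENCODE 29 on GRCh38) was read 22, 28, 15 and 17 times in the control libraries, in replicate order, and 3033, 3225, 2542 and 2840 times in the knockdown libraries. As CPM these are 1.01, 1.27, 0.711 and 0.732 in control and 129, 132, 129 and 131 in knockdown. The groups were far apart, and the knockdown values were close together, with a coefficient of variation of 1.17%. The mean went from 0.930 CPM ± 0.263 to 130.3 CPM ± 1.53 (SD, n = 4), a ratio of 140.2 and a fitted log2 fold change of 7.12 (SE 0.195). The 28.3% variation among control libraries compares with 22.1% from counting alone at these low counts. Without control replicate 2 the log2 fold change was 7.31 and without control replicate 4 it was 7.01, the ends of its range over single libraries left out.

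MSN has 2 annotated start regions, and the 250 bases before each are shown because the gene had few counts in control and many in knockdown. The deposited counts are per gene and do not say which start was used. The sequences are RefSeq's on GRCh38.p14, 5′ to 3′ on the plus strand, from chrX:65588127-65588376 for the upstream start and chrX:65667404-65667653 for the downstream start. Capitals would mark a forkhead motif, and neither window holds one.
MSN upstream start: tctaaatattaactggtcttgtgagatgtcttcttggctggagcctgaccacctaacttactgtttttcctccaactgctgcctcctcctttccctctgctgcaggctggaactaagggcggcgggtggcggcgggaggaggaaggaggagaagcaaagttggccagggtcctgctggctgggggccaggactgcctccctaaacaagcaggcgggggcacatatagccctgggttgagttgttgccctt
MSN downstream start: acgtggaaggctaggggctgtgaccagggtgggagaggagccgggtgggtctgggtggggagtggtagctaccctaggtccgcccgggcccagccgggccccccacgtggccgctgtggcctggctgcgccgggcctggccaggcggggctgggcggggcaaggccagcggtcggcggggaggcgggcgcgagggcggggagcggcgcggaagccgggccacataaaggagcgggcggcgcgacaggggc

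The forkhead core, the motif that FOXA proteins read, was searched on both strands in 8 spellings of 7 letters, which are TGTTT or TATTT followed by A or G and then by C or T. A position can match only 1 spelling on a strand. At least 1 of them occurs in 7718 of 35116 RefSeq promoter windows of this length, or 22%. The upstream MSN window has a GC content of 57.2% and 5 CpG dinucleotides, and the downstream window has 78.0% and 26, against medians of 58% and 11 over all windows. RefSeq windows were matched for EZR, RDX, MSN, NF2 and CD44, 7 windows in all, and PODXL was not matched.

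EZR encodes ezrin and was by far the most abundant member in both groups. EZR (ENSG00000092820.18, chromosome 6, 158765741 to 158819412, minus strand) had 14128, 14303, 14135 and 15044 counts in control and 22306, 23141, 18349 and 21185 in knockdown. Its level was 646, 648, 670.3 and 647 CPM in the control libraries and 947, 947, 933 and 979 CPM in the knockdown libraries. The groups did not overlap, and control replicate 3 was the highest control. The control mean was 653 CPM ± 11.6 and the knockdown mean 951 CPM ± 19.4 (SD, n = 4), a ratio of 1.46 and a log2 fold change of 0.54 (SE 0.0193). With the shift of its chromosomal neighbours taken out, as described below, the log2 fold change of EZR was 0.34. Its promoter window holds no forkhead motif, with a GC content of 80.8%. The window precedes RefSeq's start site of EZR and lies inside the GENCODE span given above.

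RDX, which encodes radixin, showed the smallest difference of the 6. RDX (ENSG00000137710.17, chromosome 11, 109864295 to 110296722, minus strand) stood at 124, 125, 109 and 127 CPM in the control libraries and at 136, 133, 135 and 133 CPM in the knockdown libraries. All knockdown libraries were above all control libraries, but the low value of control replicate 3 carried part of the difference. Means were 121 CPM ± 8.23 and 134 CPM ± 1.73 (SD, n = 4), a ratio of 1.11 and a log2 fold change of 0.15 (SE 0.0514). Without control replicate 3, whose counts stood furthest from the other controls over all genes, it was 0.094. Scaling by library size only gave 0.23, and taking out the chromosomal neighbours gave 0.42, so the size of this small difference depended on the scaling while its sign did not.

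**Figure D1:**
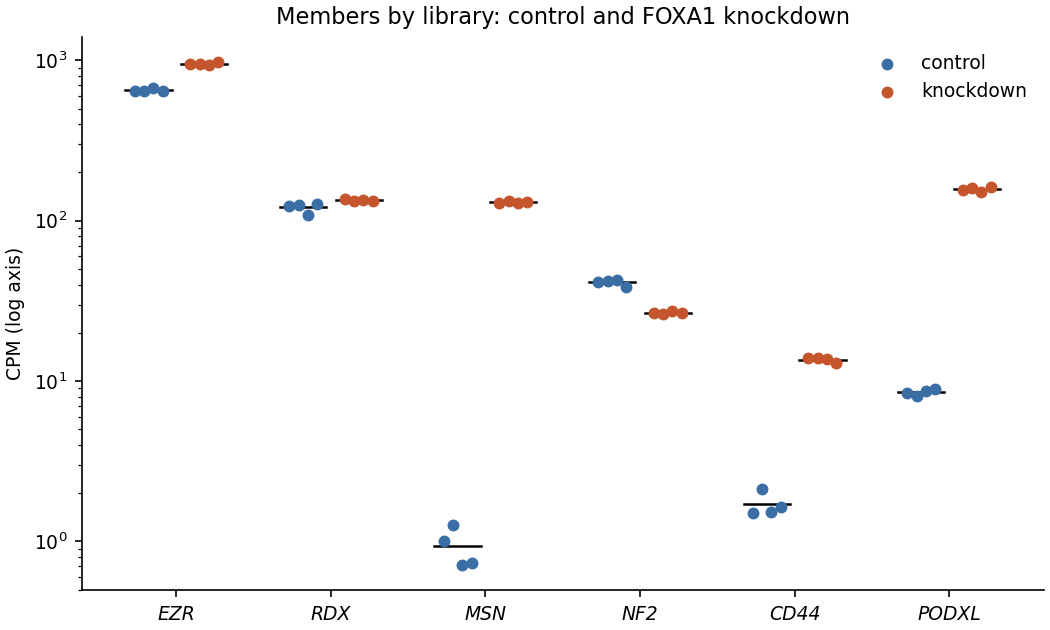
CPM of the 6 members in each of the 8 libraries on a log axis; points are libraries, blue for control and orange for FOXA1 knockdown, and bars are group means. MSN, CD44 and PODXL are higher in knockdown by more than 2-fold, EZR and RDX by less, and NF2 is lower; for none do the groups overlap.

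NF2 was the one member with a lower level in knockdown. NF2 (ENSG00000186575.19, chromosome 22, 29603556 to 29698598, plus strand) had 905, 923, 906 and 903 counts in control and 622, 644, 539 and 579 in knockdown. The corresponding levels were 41.4, 41.8, 43.0 and 38.9 CPM against 26.4, 26.3, 27.4 and 26.8 CPM. The lowest control library lay well above the highest knockdown library, and the knockdown libraries varied by 1.84%. Merlin's mRNA thus averaged 41.3 CPM ± 1.73 without and 26.7 CPM ± 0.491 with knockdown (SD, n = 4), which is 64.8% of control and a log2 fold change of -0.63 (SE 0.0334). The value was -0.38 with the neighbours' shift taken out.

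PODXL encodes podocalyxin, a sialomucin of the CD34 family that is carried on microvilli and joined to ezrin through NHERF scaffolds. PODXL (ENSG00000128567.17, chromosome 7, 131500262 to 131558217, minus strand) had 185, 177, 182 and 206 counts in control and 3682, 3892, 2968 and 3508 in knockdown. That is 8.46, 8.02, 8.63 and 8.87 CPM in control and 156, 159, 151 and 162 CPM in knockdown. Both groups were tight, at 4.18% and 3.03% variation, and far apart. The mean went from 8.50 CPM ± 0.355 to 157 CPM ± 4.76 (SD, n = 4), a ratio of 18.5 and a log2 fold change of 4.21 (SE 0.0374).

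CD44, the main cell-surface receptor for hyaluronan, whose short cytoplasmic tail binds ERM proteins and merlin, was low in both groups. CD44 (ENSG00000026508.20, chromosome 11, 35138870 to 35232402, plus strand) had 33, 47, 32 and 38 counts in control and 326, 340, 268 and 279 in knockdown. Levels were 1.51, 2.13, 1.52 and 1.64 CPM in the control libraries and 13.8, 13.9, 13.6 and 12.9 CPM in the knockdown libraries. Control replicate 2 was the highest control and still far below any knockdown library. The group means were 1.70 CPM ± 0.294 and 13.6 CPM ± 0.466 (SD, n = 4), a ratio of 7.99 and a log2 fold change of 2.99 (SE 0.118). CD44 is spliced into many isoforms, which gene counts do not separate.

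The promoter window of CD44 is shown because it is the only 1 of the 7 that holds a forkhead motif. It is RefSeq's on GRCh38.p14, chr11:35138921-35139170, 5′ to 3′ on the plus strand, and the capitals mark TATTTAC, which begins 194 bases before RefSeq's start site. This window, like that of EZR, lies inside the GENCODE span of its gene, so the match is not upstream of the GENCODE start. The match is a description of letters and not a measured site.
CD44 start: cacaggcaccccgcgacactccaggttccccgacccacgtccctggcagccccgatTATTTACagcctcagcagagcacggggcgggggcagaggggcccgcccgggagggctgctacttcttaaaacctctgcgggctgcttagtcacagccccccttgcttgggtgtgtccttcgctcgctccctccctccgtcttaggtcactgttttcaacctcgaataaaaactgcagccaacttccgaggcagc

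In all, 5 members were higher in knockdown in every library and 1 was lower in every library. Over all tested genes, 36.9% were higher with no overlap of CPM between the groups and 35.0% lower. A group mean more than 2-fold higher was found for 3 members, MSN, CD44 and PODXL, and for 15% of tested genes. Because the members were chosen with this contrast known, nothing is read from those counts. Among the log2 fold changes of all tested genes, MSN lay at percentile 98.7, PODXL at 96.2, CD44 at 94.3, EZR at 75.6, RDX at 57.3 and NF2 at 21.0.

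Levels of different genes are compared per kilobase of annotated exon (CPM per kb). In control the order was EZR at 195 ± 3.46, RDX at 14.2 ± 0.965, NF2 at 5.76 ± 0.242, PODXL at 1.24 ± 0.0517, CD44 at 0.170 ± 0.0294 and MSN at 0.156 ± 0.0441 CPM per kb (SD, n = 4). The last 2 overlapped between libraries and cannot be ordered. In knockdown it was EZR at 285 ± 5.80, PODXL at 22.9 ± 0.692, MSN at 21.8 ± 0.255, RDX at 15.7 ± 0.203, NF2 at 3.73 ± 0.0684 and CD44 at 1.36 ± 0.0466 CPM per kb (SD, n = 4). The ranges of PODXL and MSN overlapped between libraries, but within each knockdown library PODXL stood above MSN. Among 13278 protein-coding genes ranked by this level, MSN moved from place 12016 to 2008, PODXL from 9821 to 1911, CD44 from 11943 to 9764, NF2 from 6155 to 7433, RDX from 3171 to 2793 and EZR from 134 to 87.

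Ezrin mRNA made up most of the ERM sum in both groups. The summed level of EZR, RDX and MSN was 209.8 CPM per kb ± 2.51 in control and 322 CPM per kb ± 5.82 in knockdown (SD, n = 4). EZR supplied 93.1% ± 0.542 of the sum in control and 88.3% ± 0.204 in knockdown. The share of MSN was 0.0743% ± 0.0215 in control and 6.77% ± 0.107 in knockdown, and that of RDX 6.79% ± 0.531 and 4.89% ± 0.132 (SD, n = 4). Per kilobase, RDX was second to EZR in all 4 control libraries and MSN in all 4 knockdown libraries. By plain counts RDX stayed above MSN in all 4 knockdown libraries, at a mean of 11% of the ERM sum against 10.7%, so the order of these 2 genes in knockdown depends on the length correction. The ratio of EZR to NF2 per kilobase was between 33.2 and 35.7 in control and between 73.0 and 78.5 in knockdown.

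**Figure D2:**
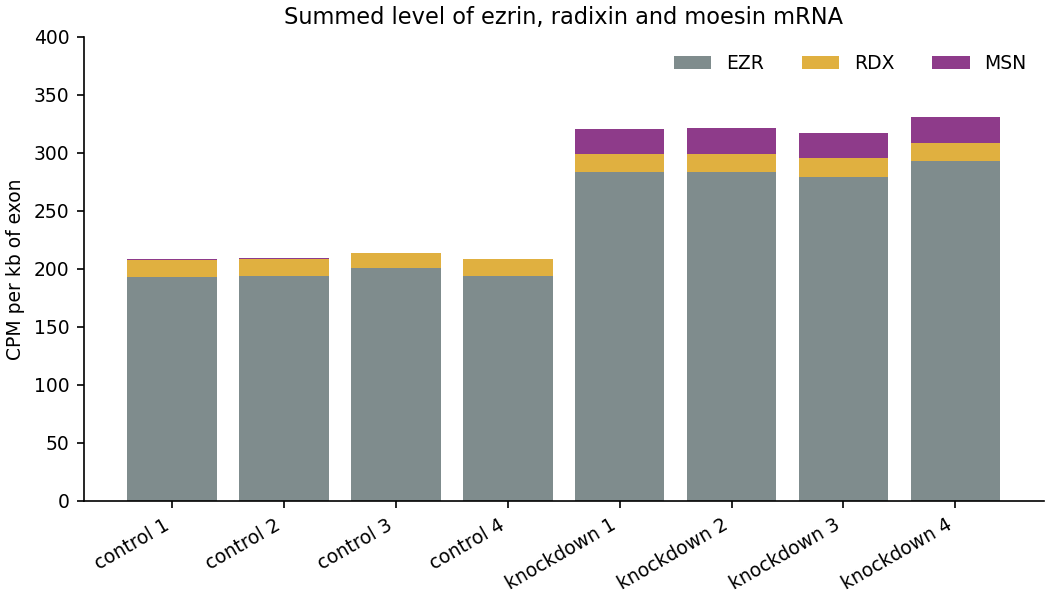
Stacked level of EZR, RDX and MSN in each library, in CPM per kb of annotated exon; each bar is 1 library. The sum is between 208 and 213.5 in control and between 317 and 330.5 in knockdown, and the MSN layer is plain in the knockdown bars and hardly visible in the control bars.

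Around these 6 genes, 7 lists of pathway genes (98 genes without the members) were followed, and 78 of the genes were tested. Of these, 29 rose, 34 fell and 15 did not pass an adjusted p under 0.05 in edgeR's test, which is 80.8% called beside 77.1% of all tested genes. The median log2 fold change was -0.09 over the listed genes and 0.02 over all tested genes. Genes with the largest changes among those averaging at least 50 counts are described with values. The others are named, after their values were seen, mainly to complete the counts.

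Kinases and phosphatases that act on ERM proteins or merlin were divided. Of 13 tested, 5 rose (MAP4K4, STK26, STK10, CDC42BPB and PPP1R12A), 4 fell (PRKCA, ROCK1, CDC42BPA and PPP1CB) and ROCK2, SLK, PAK1 and PAK2 did not pass, with a median of -0.03. The share called was 69.2%, beside 77.1% of all tested genes (39.4% higher and 37.7% lower). MAP4K4, a kinase reported to phosphorylate ERM proteins, had 2, 0, 0 and 0 counts in control and 2904, 3069, 2320 and 2669 in knockdown (edgeR adjusted p of 7.34e-29). Its knockdown mean was at least 861-fold above a floor of 3 counts per library, and its lowest knockdown library at least 829-fold. STK26 (MST4), a kinase that phosphorylates ezrin in polarised epithelial cells, rose from 25.5 CPM ± 1.25 to 91.2 CPM ± 3.90 (SD, n = 4; log2 fold change 1.84, SE 0.0466, edgeR adjusted p of 2.04e-21). Protein kinase C alpha, PRKCA, fell from 39.9 CPM ± 1.18 to 22.7 CPM ± 0.912 and ROCK1, a kinase of the actomyosin cortex, from 105 CPM ± 12.2 to 71.8 CPM ± 4.41 (SD, n = 4; edgeR adjusted p of 1.27e-13 and 4.27e-04). With the neighbours' shift taken out the log2 fold change of PRKCA was -0.39 in place of -0.81. PRKCQ and PPP1R14A were not analysed here.

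Among the scaffolds and cytoplasmic partners of ERM proteins, S100P and NHERF2 had the largest falls. Of 7 tested, NHERF1 rose, and S100P, NHERF2, SCYL3, ARHGDIA, PDZK1 and RHOA fell, with a median of -0.56, beside 39.4% higher and 37.7% lower over all tested genes. PDZK1 had the fewest counts, 20 to 46 per library, and an edgeR adjusted p of 0.029. With DESeq2, with the replicate block, and with upper-quartile or library size scaling, 5 falls rather than 6 passed the threshold. The same held when control replicate 2, knockdown replicate 2 or knockdown replicate 3 was left out. When a mean of 50 counts was required, 6 genes were tested and 5 fell. NHERF1 and NHERF2 are PDZ scaffolds that bind the FERM domain of ezrin and the tail of podocalyxin. NHERF1 averaged 415 CPM ± 21.8 without and 499.5 CPM ± 13.6 with knockdown (SD, n = 4; log2 fold change 0.27, SE 0.0424, edgeR adjusted p of 3.3e-07), and at 0.59 with the neighbours' shift taken out. NHERF2 went from 3237, 2915, 3082 and 3099 counts in control to 394, 392, 335 and 412 in knockdown, or from 140 CPM ± 8.33 to 17.2 CPM ± 1.29 (SD, n = 4; log2 fold change -3.02, SE 0.068, edgeR adjusted p of 2.04e-24). S100P, a calcium-binding protein that activates ezrin, had 3274, 3410, 3592 and 3650 counts in control and 320, 324, 265 and 278 in knockdown, a log2 fold change of -3.57 (SE 0.0435, edgeR adjusted p of 6.09e-27). Both genes were lower in every knockdown library than in any control library.

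Other membrane ligands of ERM proteins and the CD34 family had members on both sides of 0. Of 13 genes in the list 9 were tested, of which 2 rose (SDC2 among them), 5 fell (PODXL2, ICAM3, CD34 and L1CAM among them), and ICAM1 and MUC16 did not pass, with a median of -0.25. This is 77.8% called, beside 77.1% of all tested genes (39.4% higher and 37.7% lower). PODXL2 (endoglycan), the closest relative of PODXL, fell from 103 CPM ± 6.12 to 62.3 CPM ± 1.70 (SD, n = 4; log2 fold change -0.72, SE 0.0467, edgeR adjusted p of 1.07e-13). ICAM3, an adhesion molecule of leukocytes, had a log2 fold change of -0.61 (SE 0.134, edgeR adjusted p of 1.08e-05), and 2101 bp of its exons overlap a gene on the opposite strand. With the neighbours' shift taken out the log2 fold change of ICAM3 was -0.39. SDC2 had 0 counts in every control library and 15, 15, 20 and 15 in knockdown. The split between rises and falls depended on the processing. With only genes averaging at least 50 counts, 6 of the list were tested, 1 rose and 3 fell. With no filter on low counts 5 rose and 5 fell, and DESeq2 and the neighbour offset each gave 4 rises and 5 falls. PDPN, which the filter removed, had 0 counts in every control library and 9, 8, 6 and 11 in knockdown.

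**Figure D3:**
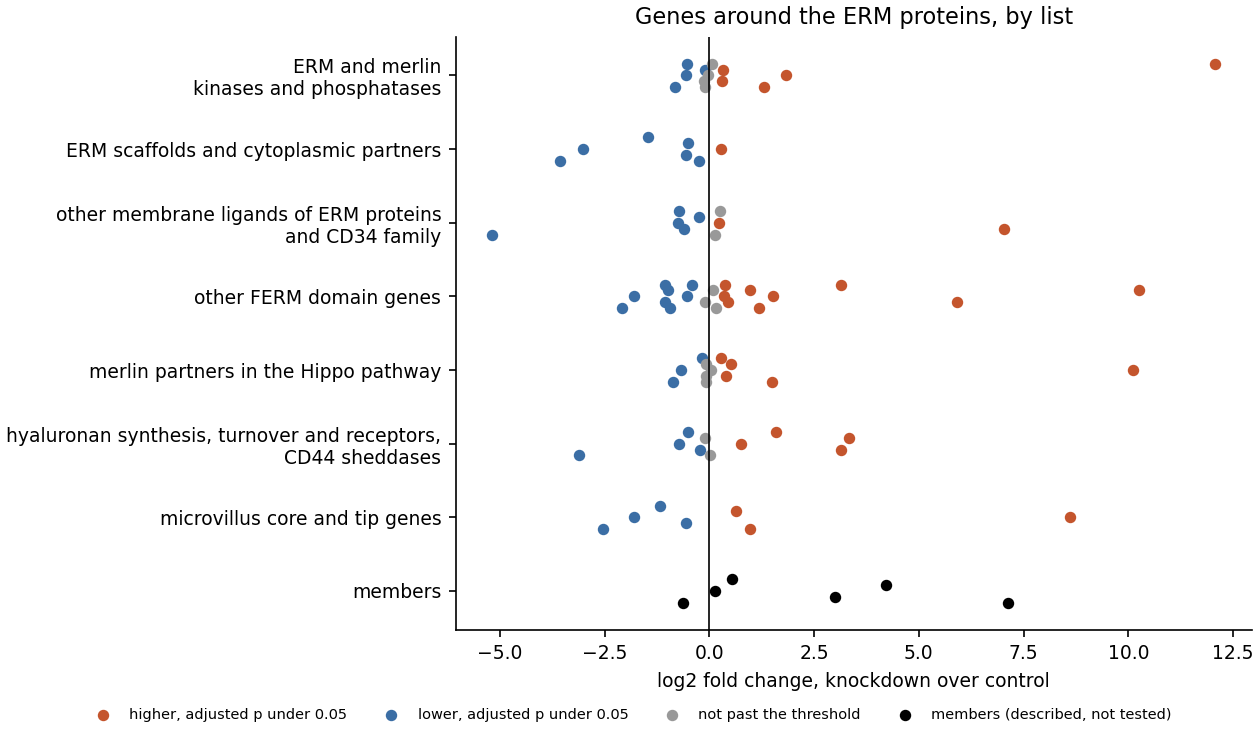
Fitted log2 fold changes (knockdown over control) of the tested genes in 7 lists and of the 6 members; each point is a gene, orange higher and blue lower at an adjusted p under 0.05 by edgeR, grey not past it, black for members, which were not tested. Most lists hold genes on both sides of 0, and the rise furthest to the right is MAP4K4, whose fitted value depends on the prior count because its control counts are near 0.

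The wider FERM domain family was divided in the same way. Of 20 tested genes 9 rose, 8 fell and 3 (EPB41, PTPN13 and PTPN14) did not pass, with a median of 0.11. That makes 85% called, beside 77.1% of all tested genes (39.4% higher and 37.7% lower). The band 4.1 relatives EPB41L2 and EPB41L3, which link spectrin and actin to membrane proteins, had the largest rises. EPB41L2 had 0, 1, 1 and 0 counts in control and 841, 863, 643 and 738 in knockdown, with a knockdown mean at least 242-fold above the floor of 3 counts. EPB41L3, also known as a tumour suppressor, had 6, 4, 3 and 4 counts in control and 255, 299, 237 and 273 in knockdown (log2 fold change 5.91, SE 0.185, edgeR adjusted p of 8.12e-21). FRMD6 (Willin), a FERM protein linked to the Hippo pathway, fell from 14.6 CPM ± 0.690 to 3.44 CPM ± 0.573 (SD, n = 4; log2 fold change -2.08, SE 0.122, edgeR adjusted p of 5.87e-16). EPB41L4A had a log2 fold change of -1.80 (SE 0.109, edgeR adjusted p of 3.64e-12), but 1659 bp of its exons overlap an antisense gene that averaged 629 counts, so its counts are uncertain.

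Partners of merlin in the Hippo pathway, the kinase cascade that holds YAP out of the nucleus, gave 5 rises (AMOT, MOB1B, LATS1, DCAF1 and MOB1A), 3 falls (AMOTL2, AMOTL1 and WWC1) and 4 genes that did not pass (SAV1, LATS2, STK3 and STK4), with a median of -0.02. In this list 66.7% were called, beside 77.1% of all tested genes (39.4% higher and 37.7% lower). The 3 angiomotins, membrane scaffolds that bind merlin and YAP, did not move together. AMOT had 5, 3, 2 and 0 counts in control and 2960, 3292, 2590 and 2834 in knockdown (edgeR adjusted p of 2.59e-28). AMOTL2 fell from 238 CPM ± 6.45 to 130.2 CPM ± 3.33 and AMOTL1 from 179 CPM ± 4.89 to 112 CPM ± 5.77 (SD, n = 4; edgeR adjusted p of 1.4e-17 and 3.6e-14). MOB1B, an activator of the LATS kinases, rose from 8.24 CPM ± 0.670 to 23.1 CPM ± 1.5 (SD, n = 4; edgeR adjusted p of 1.15e-15), and 199 bp of its exons overlap DCK on the same strand.

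Genes that make, bind or break down hyaluronan, the ligand of CD44, or that shed CD44, gave 4 rises (HAS3, STAB1, HMMR and ADAM17), 4 falls (HYAL1, CEMIP2, HYAL3 and HYAL2) and 2 genes that did not pass (ADAM10 and CEMIP), with a median of -0.04 over 10 tested. Calls thus came to 80%, beside 77.1% of all tested genes (39.4% higher and 37.7% lower). HAS3 and STAB1 had the largest rises, with log2 fold changes of 3.33 and 3.15, but averaged only 24.25 and 20.5 counts. HMMR, a hyaluronan-binding protein that is also a mitotic spindle protein, rose from 28.6 CPM ± 4.49 to 86.9 CPM ± 7.10 (SD, n = 4; log2 fold change 1.60, SE 0.134, edgeR adjusted p of 4.5e-06). ADAM17, a protease that sheds CD44 and EGF-family ligands, rose from 40.5 CPM ± 2.41 to 68.3 CPM ± 2.52 (SD, n = 4; log2 fold change 0.75, SE 0.0511, edgeR adjusted p of 2.55e-13). It shares 1323 bp of exon with IAH1 on the opposite strand. The hyaluronidase HYAL1 had 265, 262, 273 and 303 counts in control and 41, 35, 22 and 31 in knockdown, a log2 fold change of -3.11 (SE 0.132, edgeR adjusted p of 2.36e-18). CEMIP2, a cell-surface hyaluronidase, had a log2 fold change of -0.73 (SE 0.0566, edgeR adjusted p of 2.86e-12). HAS2, LYVE1 and TNFAIP6 were not analysed here.

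Genes listed for the actin core and the tip of microvilli, the structures that ezrin supports, gave 3 rises and 4 falls among 7 tested, with a median of -0.55. Over all tested genes 77.1% were called. Of 13 genes, 6 (VIL1, CDHR2, CDHR5, MYO1A, USH1C and ANKS4B) were below the filter on low counts. FSCN1 (fascin), an actin bundler of filopodia, had 38, 36, 23 and 40 counts in control and 14389, 14959, 11354 and 13421 in knockdown, or 1.55 CPM ± 0.307 and 605 CPM ± 18.9 (SD, n = 4; log2 fold change 8.60, SE 0.159, edgeR adjusted p of 4.14e-32). PLS3 and EPS8 also rose, PLS3 from 143 CPM ± 9.12 to 282 CPM ± 3.49 (SD, n = 4; edgeR adjusted p of 1.77e-17). The other plastin, PLS1, the form of epithelial microvilli, fell from 12.2 CPM ± 1.47 to 2.10 CPM ± 0.127 (SD, n = 4; edgeR adjusted p of 1.38e-16). EPS8L2 fell from 494 CPM ± 22.2 to 218 CPM ± 8.12 (SD, n = 4; edgeR adjusted p of 9.25e-20), and ESPN and MYO7B fell as well.

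To allow for a shift of fold changes along chromosomes, each member was set beside the 50 tested genes nearest to it. The median log2 fold change of those neighbours was 0.31 for MSN, 0.20 for EZR, -0.23 for CD44, -0.24 for NF2, -0.25 for PODXL and -0.27 for RDX. None of the 50 neighbours of MSN had a higher log2 fold change than MSN, and for PODXL 1 did and for CD44 3 did. For EZR 8 neighbours were higher and for RDX 14, and 44 of 50 neighbours of NF2 were higher than NF2. Refitted with the neighbours' median as an offset, the log2 fold changes were 6.82 for MSN, 4.45 for PODXL, 3.22 for CD44, 0.42 for RDX, 0.34 for EZR and -0.38 for NF2. The signs of all 6 were kept, and the values for EZR, RDX and NF2 moved by more than 1.5 times. The lower and upper quartiles of the neighbours lay on opposite sides of 0 for all 6 members. Whether a local shift exists or contributes to any member was not tested beyond these values.

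**Figure D4:**
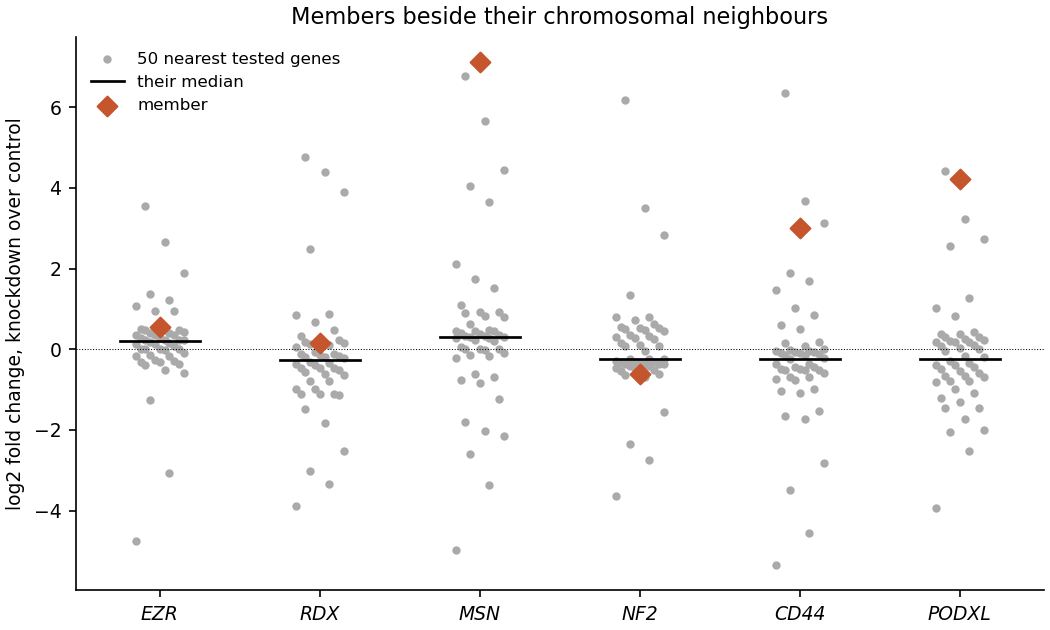
Log2 fold change (knockdown over control) of each member (diamond), of its 50 nearest tested genes on the chromosome (grey points) and their median (line). MSN lies above all of its neighbours, PODXL below 1 of its neighbours and CD44 below 3, and EZR, RDX and NF2 lie within the spread of theirs.

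Genes whose pattern over the 8 libraries came nearest to that of a member with more than a 2-fold difference were found by the root mean square difference in log2 CPM, each gene centred on its own mean, among 11727 named genes with at least 50 counts on average. For MSN these were PIK3AP1 (0.215) and ACSL4 (0.223), a fatty acid CoA ligase gene that is also on the X chromosome. PIK3AP1 averaged 0.272 CPM ± 0.144 without and 34.0 CPM ± 0.781 with knockdown (SD, n = 4). For PODXL they were DAPK1 (0.0608), which encodes a death-associated protein kinase, and ADARB1 (0.0846), which encodes an RNA-editing enzyme. DAPK1 stood at 5.98 CPM ± 0.426 and 118 CPM ± 4.00 (SD, n = 4). For CD44 they were ZNF175 (0.0561) and GREB1L (0.0914), with ZNF175 at 1.61 CPM ± 0.239 and 12.8 CPM ± 0.887 (SD, n = 4). With 2 groups of libraries this likeness mostly measures a like fold change.

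Overlap with other genes was small for the members. In GENCODE 29, EZR shares 24 bp of exon with the antisense gene EZR-AS1, and CD44 shares 84 bp with CD44-AS1, which averaged 0.5 counts per library. The exons of RDX, MSN, NF2 and PODXL overlap no other annotated exon. A processed copy of MSN, MSNP1, is annotated on chromosome 5 and was not analysed here.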

How the data were processed

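RNA was extracted with Trizol and sequenced as paired reads on an Illumina NextSeq550, per the labels' protocols. The authors deposited whole-number counts per gene under Ensembl identifiers for 8 libraries. The submitters' processing notes name FastQC, Salmon 1.9, DESeq2 3.16 and hg38, with no role given, so the counts may be rounded Salmon estimates. Which annotation was used, and whether strand was, is not given in the sources used here.

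Groups came from sample titles and columns were matched by name. The members and lists were chosen with earlier results of these data known. Genes were kept by filterByExpr (minimum 10 counts, total 15), scaled by TMM and tested with edgeR 4.0.16 in R 4.3.3 (glmQLFit robust, glmQLFTest), knockdown against control, with Benjamini-Hochberg adjustment over 16430 genes and a threshold of 0.05. Fitted fold changes use a prior count of 0.125. CPM is the count over the TMM-scaled total of the whole table, and standard errors come from log2 CPM with 0.5 added. Positions and union exon lengths are from GENCODE 29, which matched 96.5% of genes.

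Named genes are the members and, per list, up to 2 rises and 2 falls with the largest fold change, an adjusted p under 0.05 and a mean of at least 50 counts. Some genes that the lists and this rule take in are not reported here by name. Older symbols were matched for NHERF1 and NHERF2. On simulated counts for 16430 genes, 191 of 200 changed genes (95.5%) were called with the right sign, among 204 genes called. So few changed genes are unlike the data, where 77.1% were called. The simulation therefore cannot show how the scaling and test behave when most genes change. Alternatives were other scalings and filters, DESeq2 1.42.0, limma 3.58.1 voom, a replicate block, an offset for chromosomal neighbours, a test against a 2-fold change and leaving out each library. Floors cover counting error only.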

Additional observations from a re-analysis of the deposited data

Results flagged for a closer look

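In 62 groups of 4 values (the members and the named genes), a library was picked out where its gap to the nearest library took up most of the range of its group, by Dixon's criterion. This picked out 2 groups, where chance gives about 3.1. EZR was high in control replicate 3, at 670.3 CPM against 646 to 648 CPM in the other controls (gap ratio 0.904). FSCN1 was low in the same library, at 1.09 CPM against 1.63 to 1.74 CPM (gap ratio 0.837). Over all genes, chi-square per degree of freedom was between 4.50 and 5.72 for pairs with control replicate 3 and between 2.10 and 2.28 for other control pairs. Without that library the log2 fold change of EZR was 0.55.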

How the results depend on the processing

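Direction was kept for all 6 members in each of 17 alternatives, which leave out the test against a 2-fold change. For the 26 named list genes, all 442 values from these alternatives kept their sign and an adjusted p under 0.05. Those genes had been picked for large changes with an adjusted p under 0.05 in the main fit, so this outcome was likely beforehand. Scaling by library size only moved EZR to 0.63, NF2 to -0.54 and PODXL to 4.29, and upper-quartile scaling moved EZR to 0.60. The offset for chromosomal neighbours gave 0.34 for EZR, 0.42 for RDX, -0.38 for NF2 and 4.45 for PODXL, and among the named list genes those it moved by more than 1.5 times include PRKCA, NHERF1 and ICAM3. Against a 2-fold change, 3863 of 16430 tested genes were called, in place of 12675. By list, 3 of 13 kinases and phosphatases, 3 of 7 scaffolds and 2 of 9 membrane ligands were called. So were 8 of 20 FERM domain genes, 2 of 12 Hippo partners, 4 of 10 hyaluronan genes and 4 of 7 microvillus genes. Named genes not called against a 2-fold change include PRKCA, ROCK1, NHERF1, AMOTL1 and AMOTL2. When a mean of 50 counts was required, 4 membrane ligands were called in place of 7. As shares of plain counts rather than per kilobase, MSN made up 0.120% of the ERM sum in control and 10.7% in knockdown, and EZR 84.2% and 78.2%, so that RDX, at 15.7% and 11%, stood just above MSN in knockdown.

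Same-numbered libraries deviated together with correlations between -0.0307 and 0.0563, so the numbers were not taken as pairs. With the replicate block, 12453 genes were called and MSN stood at 7.12. The 4 libraries per group and 15 to 47 counts of MSN and CD44 in control limit the precision of those fold changes.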
